A study of Mus musculus with 24 samples.

Results

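The expression of 40 mouse genes of the Wnt pathway was followed through the conversion of amniotic cells to endothelial-like cells. The genes were taken by name as 6 Wnt ligands, 11 Frizzled and Lrp receptors, 3 Ror and Ryk receptors, 8 secreted inhibitors, 7 components from β-catenin to the Tcf factors, and 5 feedback regulators. All 40 had a row among the 22282 genes of the 24 libraries. The level of a gene is its FPKM, the fragments per kilobase of transcript normalized to the sequenced fragments of the library, summed over its RefSeq transcripts. Of the 40 genes, 38 passed the filter of a mean FPKM of at least 1 that was set for the tests, and Wnt6 and Rnf43 did not.

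RNA was sequenced from 8 groups with 3 libraries each, all from C57BL/6J mice. For the amniotic cells the study's methods name wild-type or tdTomato reporter mice of C57BL/6 background. Which libraries came from reporter mice was not given in the sources used here. MACs are mouse amniotic cells from embryos at E11.5 to E13.5, pooled from litters of mixed sex for each isolate and grown in an amniotic cell medium. RACVECs are MACs that received lentiviruses for the Ets factors Etv2, Erg and Fli1 under the PGK promoter. They were kept in endothelial cell medium with SB431542, an inhibitor of TGFβ receptor signalling, and VEGF-A, so that medium and transcription factors cannot be told apart between RACVECs and MACs. Akt-MACs and Akt-RACVECs also carried a myristoylated, constitutively active Akt1, and Sox17-RACVECs are RACVECs that received a Sox17 lentivirus and were selected with puromycin. Akt-LECs and Akt-liver ECs are adult lung and liver endothelial cells that were enriched with CD31 beads, cultured with the same Akt and sorted again for VE-cadherin and CD31. LSECs are liver sinusoidal endothelial cells that were labelled in the living adult mouse and sorted without culture. Akt-liver ECs and LSECs therefore differ in culture and in Akt together.

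Wnt proteins are secreted lipid-modified ligands that bind Frizzled receptors together with the co-receptors Lrp5 and Lrp6. In the canonical branch this binding stops the destruction complex of Apc and the Axins from marking β-catenin for degradation, and β-catenin then acts in the nucleus with the Tcf and Lef factors. Other branches run through Ror1, Ror2, Ryk and the planar cell polarity proteins. Dkk proteins block the Lrp co-receptors, while Sfrp proteins, Frzb and Wif1 bind Wnts outside the cell. Axin2, Nkd1, Nkd2, Znrf3 and Rnf43 dampen the signal, and several of them are transcribed in response to it. In endothelium the pathway is known for its role in the barrier vessels of the brain and the retina, where Norrin or Wnt ligands act through Fzd4, Lrp5 and Tspan12. In the liver, endothelial Wnt2, Wnt9b and Rspo3 are known to act on neighbouring hepatocytes.

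The start-site regions of the genes are shown first because the Ets factors that drove the conversion and the Tcf factors that end the pathway bind short DNA letters, and the sequences let these be located. RefSeq promoters of build GRCm38.p6, from 250 bases before to 50 bases after each start, were matched for 27 of the 40 genes, which gave 37 promoters. The letters CTTTGAT or CTTTGAA, the core bound by Tcf factors, stood on either strand in 3 of the 37 promoters and in 8.65% of all 32851 promoters. The Ets letters CCGGAAGT, CAGGAAGT or CAGGAAAT stood in 3 of the 37 and in 9.15% of all. The Sox letters ACAATGG or ACAATAG stood in 0 of the 37 and in 5.95% of all. No match of one motif overlapped a match of another. The windows around the 6 matches follow, each written 5′ to 3′ on the strand of the gene, with the matched letters or their reverse complement in capitals. The first 3 hold Ets letters and the last 3 hold Tcf letters.
Sfrp2, chr3:83766142-83766171: gcgcagcccgaATTTCCTGccagcgagcgc
Lef1, chr3:131156269-131156298: ttgattgcacaCAGGAAGTtataacagatc
Tcf7, chr11:52282603-52282632: gagctggagtcACTTCCGGtgccctgacct
Wnt5b, chr6:119449440-119449468: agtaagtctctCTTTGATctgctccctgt
Wnt11, chr7:98835050-98835078: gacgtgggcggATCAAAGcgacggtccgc
Dkk1, chr19:30549596-30549624: tcctcccaaagCTTTGAAatcccatcccg
The genes of Tcf7, Wnt5b and Dkk1 lie on the minus strand and the others on the plus strand. The Ets matches began 168, 14 and 26 bases before the start site of their promoter, in Sfrp2, Lef1 and Tcf7. The Tcf matches began 71, 51 and 117 bases before it, in Wnt5b, Wnt11 and Dkk1. Lef1, Tcf7, Wnt5b and Wnt11 had further promoters, which held no match. In Lef1, Tcf7 and Wnt5b the match stood in the most downstream promoter of the gene.

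The promoters of the pathway genes were rich in GC. Their median GC content was 66.7% against 52.7% over all promoters, and the median number of CpG dinucleotides was 24 against 7. The promoters of Fzd4, the receptor with the largest called increase between Akt-MACs and Akt-RACVECs, and of Nkd1, the 1 gene called lower in cultured liver endothelium than in LSECs, are shown because neither held any of the letters searched for.
Fzd4, chr7:89404116-89404415, plus strand: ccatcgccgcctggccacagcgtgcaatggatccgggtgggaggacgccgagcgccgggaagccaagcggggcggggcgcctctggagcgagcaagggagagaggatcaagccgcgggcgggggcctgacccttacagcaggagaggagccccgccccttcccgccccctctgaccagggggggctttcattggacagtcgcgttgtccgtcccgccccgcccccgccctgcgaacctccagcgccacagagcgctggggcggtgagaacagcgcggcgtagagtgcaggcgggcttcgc
Nkd1, chr8:88527383-88527682, plus strand: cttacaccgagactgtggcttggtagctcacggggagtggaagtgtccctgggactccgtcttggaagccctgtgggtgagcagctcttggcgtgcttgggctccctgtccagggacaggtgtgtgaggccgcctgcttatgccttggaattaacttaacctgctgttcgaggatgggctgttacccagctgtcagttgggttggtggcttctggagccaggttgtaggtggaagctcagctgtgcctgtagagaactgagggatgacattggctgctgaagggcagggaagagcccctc

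The libraries are described once, because several of them stood apart. By correlation of log2(FPKM + 1) over the tested genes, 13 libraries were closest to a library of another group and 11 to one of their own. MAC 2 was closest to RACVEC 1 (0.899, against 0.870 within MACs). Akt-LEC 1 was closest to Akt-liver EC 1 (0.949, against 0.879 within Akt-LECs). The summed FPKM of a library lay between 1689486 and 2317294, and the number of reads is unknown, so that no counting error can be given. The summed FPKM of 8 endothelial markers was 53.2 to 83.9 in MACs, 2147 to 4479 in RACVECs, 13779 to 18618 in Akt-RACVECs and 17759 to 20339 in LSECs. The library labelled Sox17-RACVEC 2 went against its label: Etv2 was listed at 0 there, against 458 and 378 in the other two libraries of the group, and Erg stood at 387. Its closest library was Akt-RACVEC 3, with a correlation of 0.970, against at most 0.873 within its own group. Sox17 itself was at 5.09, 40.1 and 200.1 in that group and was listed at 0 in every RACVEC and MAC library. Akt-LEC 1 carried a mesenchymal marker sum of 4925, against 21.9 and 125 in the other two, and Akt-liver EC 1 carried macrophage and epithelial markers. MAC 3 carried hepatocyte and stellate cell marker sums of 5643 and 5080.3, where the other MAC libraries had at most 262 and 628, and it held the highest Tcf7, Wnt4 and Fzd8 of the MACs. Of the 8 hepatocyte markers, 5 were listed at 0 in all MAC libraries, namely Alb, Apoa1, Serpina1c, Fgb and Ahsg. The hepatocyte sum of MAC 3 thus came from Apoa2, Ttr and Trf alone. Of the 7 stellate cell markers, Lrat was listed at 0 in all MAC libraries. Akt-MAC 1, Akt-MAC 2 and Akt-MAC 3 carried macrophage marker sums of 815, 11042 and 35797, where MACs had 0.79 to 14.7. In bulk RNA of this kind, fewer cells of a type and less RNA per cell cannot be told apart.

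More Wnt genes were detected in the amniotic cells than in all but 2 endothelial libraries. Between 33 and 38 of the 40 genes reached 1 FPKM in a MAC or Akt-MAC library. The number was 22 to 28 in RACVECs, 21 to 28 in Akt-RACVECs, 22 to 24 in Sox17-RACVECs and 22 or 23 in LSECs. Akt-LEC 1 and Akt-liver EC 1, both with markers of other cells, held 33 and 34, while the remaining libraries of cultured endothelium held 24 to 27. By group mean, 15 genes were highest in MACs and 13 in Akt-MACs, whereas 22 were lowest or joint lowest in LSECs and 15 in Sox17-RACVECs, ties at 0 included. Without ties it was 14 in LSECs and 3 in Sox17-RACVECs. These counts were not set against those of all genes, and they describe the 40 genes alone. A core of 9 genes stayed at 10 FPKM or more in all 24 libraries, namely Fzd8, Lrp5, Lrp6, Ryk, Ctnnb1, Apc, Axin1, Tcf7l1 and Tcf7l2. They are receptors, β-catenin, parts of its destruction complex and nuclear factors. For 6 others a single library held more than 50% of the FPKM summed over all libraries, with 95.2% for Dkk1, 82.8% for Lef1 and 56.9% for Wif1 in MAC 1, 56.3% for Frzb in the same library, 69.8% for Sfrp1 in MAC 2 and 66.2% for Sfrp4 in Akt-MAC 3. The group means of those genes are set largely by 1 library.

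**Figure D1:**
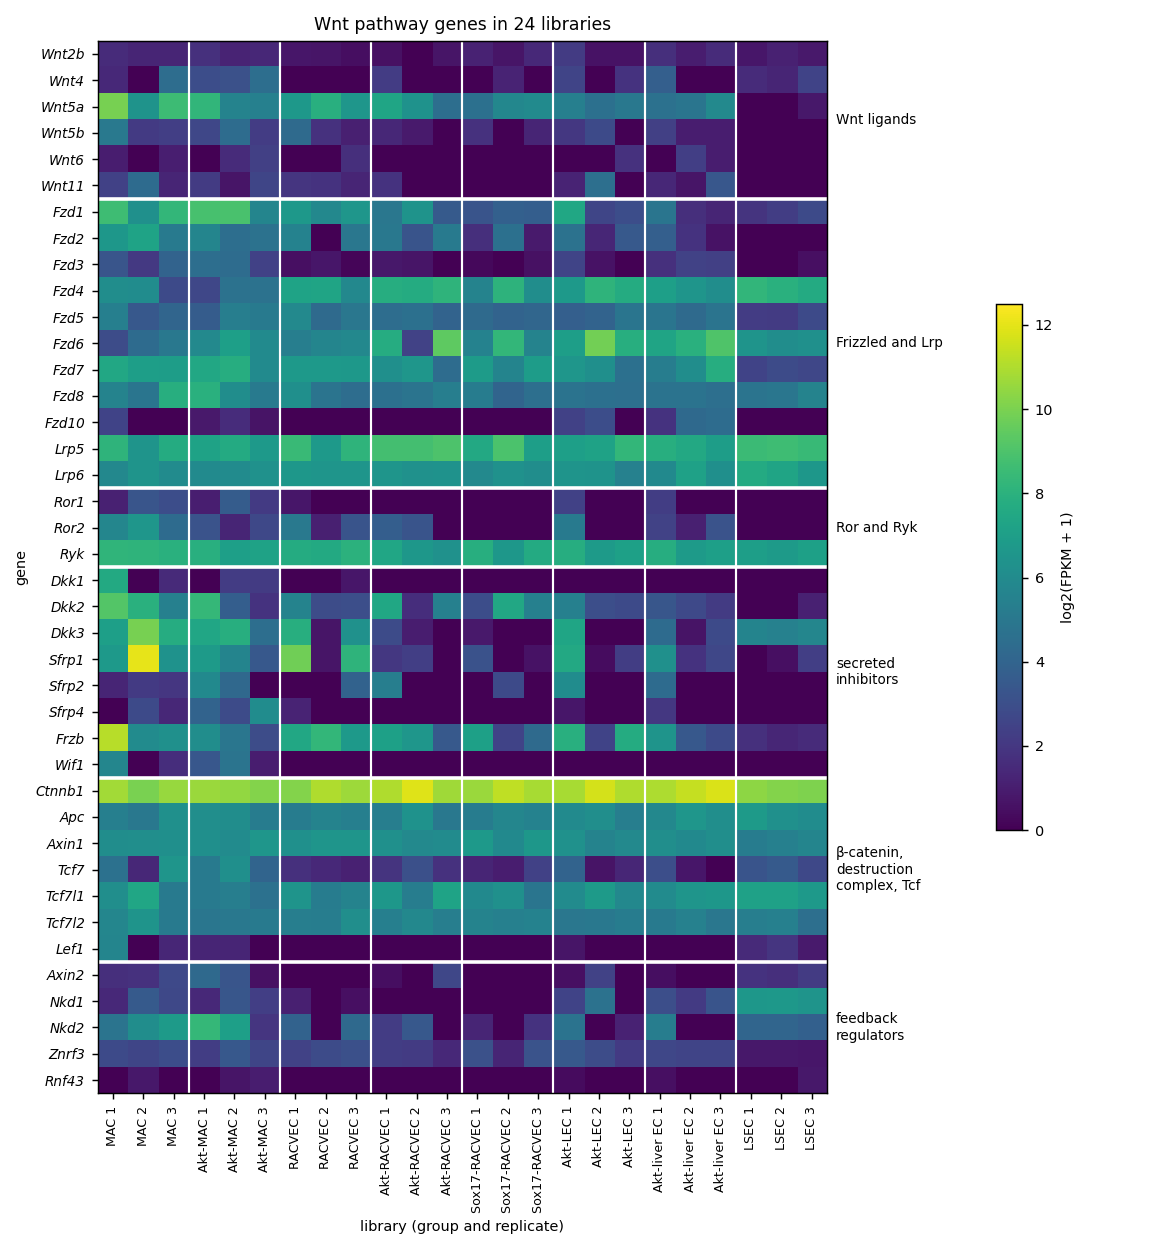
Level of each of the 40 Wnt genes (rows, ordered by role) in each of the 24 libraries (columns, ordered by group), as log2(FPKM + 1) on the colour scale. Lrp5, Lrp6, Fzd8, Ryk, Ctnnb1, Apc, Axin1, Tcf7l1 and Tcf7l2 are filled in every column, while Fzd10, Ror1, Lef1, Wif1 and Dkk1 are at 0 in most endothelial columns.

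Among the 6 ligands, Wnt5a, which mostly signals outside the β-catenin branch, had the highest mean in every group but LSECs. It stood at 968, 84.7 and 384 FPKM in the 3 MAC libraries, 294, 46.7 and 42.6 in Akt-MACs, 101, 237 and 94.7 in RACVECs, 159.7, 82.2 and 21.9 in Akt-RACVECs and 23.6, 55 and 61.7 in Sox17-RACVECs. Cultured adult endothelium held 41, 23.4 and 31.6 in Akt-LECs and 24.3, 28.4 and 57.6 in Akt-liver ECs, and LSECs held 0, 0 and 0.73. The LSEC libraries lay below all others, and the remaining groups overlapped with their neighbours in the order of means. Its relative Wnt5b ranged from 0 to 32.2, highest in MAC 1, and was listed at 0 in all LSEC libraries. Wnt11, another ligand of the non-canonical branch, ranged from 0 to 22.6 and was listed at 0 in every Sox17-RACVEC and LSEC library. Wnt4 ranged from 0 to 21.7, with 6.74, 7.6 and 21.7 in Akt-MACs and 0 in all RACVEC libraries. Wnt2b and Wnt6 never reached 10, with ranges of 0 to 3.47 and 0 to 4.22.

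Of the Frizzled receptors, Fzd1, Fzd2 and Fzd7 had their highest group means in the amniotic groups and Fzd4 and Fzd6 in endothelial ones. Fzd4, the receptor of Norrin, was at 69.6, 65.8 and 5.94 in MACs and 5.29, 25.2 and 25.6 in Akt-MACs. It was at 151, 156 and 56.2 in RACVECs, 218, 209 and 275 in Akt-RACVECs and 297, 246 and 199 in LSECs. In Sox17-RACVECs it was at 46.8, 270.1 and 68.6, where the high value is that of library 2. Akt-LECs held 104, 277 and 204 and Akt-liver ECs 134, 89.7 and 69.5, and the Akt-liver EC libraries overlapped with RACVECs and MACs. The Akt-RACVEC and LSEC libraries lay above every MAC, Akt-MAC and RACVEC library. Fzd6 ranged from 4.5 to 929.9, with MACs at 6.51, 19.6 and 30.8 and Akt-RACVECs at 214, 4.5 and 681. Thus 1 Akt-RACVEC library lay below all MAC libraries and the others above. All Akt-MAC libraries, at 57.55 to 132.9, lay above all RACVEC libraries, at 39.6 to 56.2. Fzd1 ranged from 1.44 to 476 and was above 50 in all MAC, Akt-MAC and RACVEC libraries. Fzd2 ranged from 0 to 149, Fzd5 from 3.54 to 58, Fzd7 from 4.65 to 219 and Fzd8 from 15.3 to 247. Fzd3 and Fzd10 were low, with ranges of 0 to 21.9 and 0 to 20.2. The co-receptor Lrp5 ranged from 87.8 to 509.9 and was highest in Akt-RACVECs at 427, 431 and 509.9, while Lrp6 kept within 44.7 to 199.

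Ryk, a receptor with an inactive kinase domain that binds Wnts, was abundant in all groups at 78.6 to 285 FPKM. The Ror kinases, receptors of Wnt5a, were far lower per length of transcript. Ror2 stood at 53.1, 93.9 and 19.6 in MACs and 32.3, 1.14 and 8.54 in RACVECs, and was listed at 0 in all Sox17-RACVEC and LSEC libraries. Ror1 stood at 1.24, 8.85 and 6.62 in MACs and 1.1, 11.7 and 3.36 in Akt-MACs. It was listed at 0 in all libraries of Akt-RACVECs, Sox17-RACVECs and LSECs, and was above 0 in 1 library each of RACVECs, Akt-LECs and Akt-liver ECs.

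The 8 secreted inhibitors together gave 3365, 5477 and 419 FPKM in the MAC libraries, 753, 373 and 111 in Akt-MACs and 1341, 313 and 489 in RACVECs. The sums were 357, 101 and 52.4 in Akt-RACVECs and 50.5, 46.1 and 60.3 in LSECs. All Akt-RACVEC and LSEC libraries thus lay below all MAC libraries, and Akt-RACVECs overlapped with both RACVECs and Akt-MACs. Sox17-RACVECs gave 152, 193 and 62.7, Akt-LECs 694, 12.2 and 215 and Akt-liver ECs 214, 18.85 and 20.95. Akt-LEC 1 lay above MAC 3. The LSEC sums were mostly Dkk3, at 48.2, 44.1 and 53.2. Sfrp1 was at 105, 4181 and 81.2 in MACs, 885, 0.66 and 279.6 in RACVECs and 3.07, 4.07 and 0 in Akt-RACVECs. Dkk3 was at 134, 977 and 212 in MACs, 229.8, 0.64 and 78.6 in RACVECs and 6.14, 0.98 and 0 in Akt-RACVECs. In both genes the MAC libraries lay above all Akt-RACVEC libraries. RACVEC 2, the library in which both genes were lowest within RACVECs, also had the lowest mesenchymal marker sum of the group, 1345 against 7379.7 and 2956. In Akt-LECs the library with mesenchymal markers held Sfrp1 at 183 and Dkk3 at 163, against at most 3.78 and 0 in the others. The part of such cells in these levels was not tested. Dkk2 ranged from 0 to 569.9 and Frzb from 1.56 to 2311. Dkk1 and Wif1, at ranges of 0 to 191 and 0 to 52.6, were listed at 0 in all Akt-RACVEC, Sox17-RACVEC, Akt-LEC, Akt-liver EC and LSEC libraries. Sfrp2 ranged from 0 to 67 and Sfrp4 from 0 to 66.2.

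**Figure D2:**
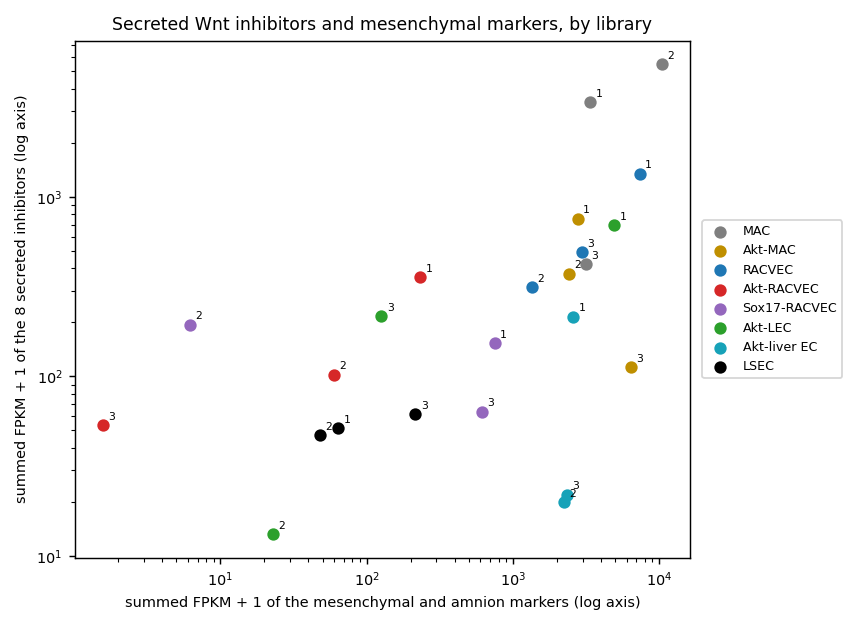
Summed FPKM + 1 of the 8 secreted Wnt inhibitors (vertical) against the summed FPKM + 1 of 8 mesenchymal and amnion markers (horizontal), both on log axes, with 1 point per library, numbered and coloured by group. The Akt-RACVEC libraries lie left of all MAC, Akt-MAC and RACVEC libraries, with marker sums of at most 231, and Akt-liver EC 2 and 3 combine marker sums of 2239 and 2327 with the lowest inhibitor sums but that of Akt-LEC 2.

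Intracellular components varied less. Ctnnb1, which encodes β-catenin, had the highest mean of the 40 genes over the 24 libraries, at 1003 to 3776 FPKM, and it lay above 1000 in every library. Apc ranged from 30.9 to 110.3 and Axin1 from 36.5 to 104. The nuclear factors Tcf7l1, which often acts as a repressor, and Tcf7l2 ranged from 24.3 to 167 and 22.5 to 86.5. Tcf7 and Lef1, which are themselves target genes in many tissues, were far more uneven. Tcf7 was at 24.1, 1.61 and 90.2 in MACs, 34.4, 73.2 and 15.4 in Akt-MACs, 2.37, 1.73 and 1.19 in RACVECs and 8.53, 10.5 and 5.63 in LSECs. Lef1 was at 50.6, 0 and 1.5 in MACs and 1.77, 2.81 and 0.87 in LSECs, and was listed at 0 in all RACVEC, Akt-RACVEC, Sox17-RACVEC and Akt-liver EC libraries.

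The feedback regulators differed in where they were highest. Nkd1, an inhibitor of Dishevelled, was at 96.1, 101 and 87.5 in LSECs and at most 24.8 in any other library, with 1.67, 10.6 and 5.59 in MACs, 1.76, 9.3 and 3.93 in Akt-MACs and 0 in all Akt-RACVEC and Sox17-RACVEC libraries. Nkd2 was at 324, 130.2 and 2.87 in Akt-MACs, 27.1, 68.2 and 112 in MACs and 15.9, 16 and 13.1 in LSECs. Axin2, a commonly used readout of canonical signalling, was at 2.2, 2.49 and 5.67 in MACs and 18.5, 8.88 and 0.46 in Akt-MACs. It was listed at 0 in all RACVEC and Sox17-RACVEC libraries and stood at 2.51, 2.25 and 3.51 in LSECs. The membrane ubiquitin ligase Znrf3, which removes Frizzled receptors, ranged from 0.68 to 10.2 and was lowest in LSECs at 0.75, 0.75 and 0.68. Its relative Rnf43 never exceeded 0.99.

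Limma was run on log2(FPKM + 1), and a gene was called where the adjusted p (Benjamini-Hochberg over 14964 genes) was below 0.05 and the log2 difference past 1 or -1. Differences are given as the first group minus the second and understate the change of low genes, since 1 is added to each FPKM. The p-values measure the spread between these libraries. Over 10 comparisons 14 of the 38 tested genes were called at least once, against 40.8% of all genes. Fzd3, Sfrp4 and Nkd1 were called more than once, as were 9.76% of all genes.

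**Figure D3:**
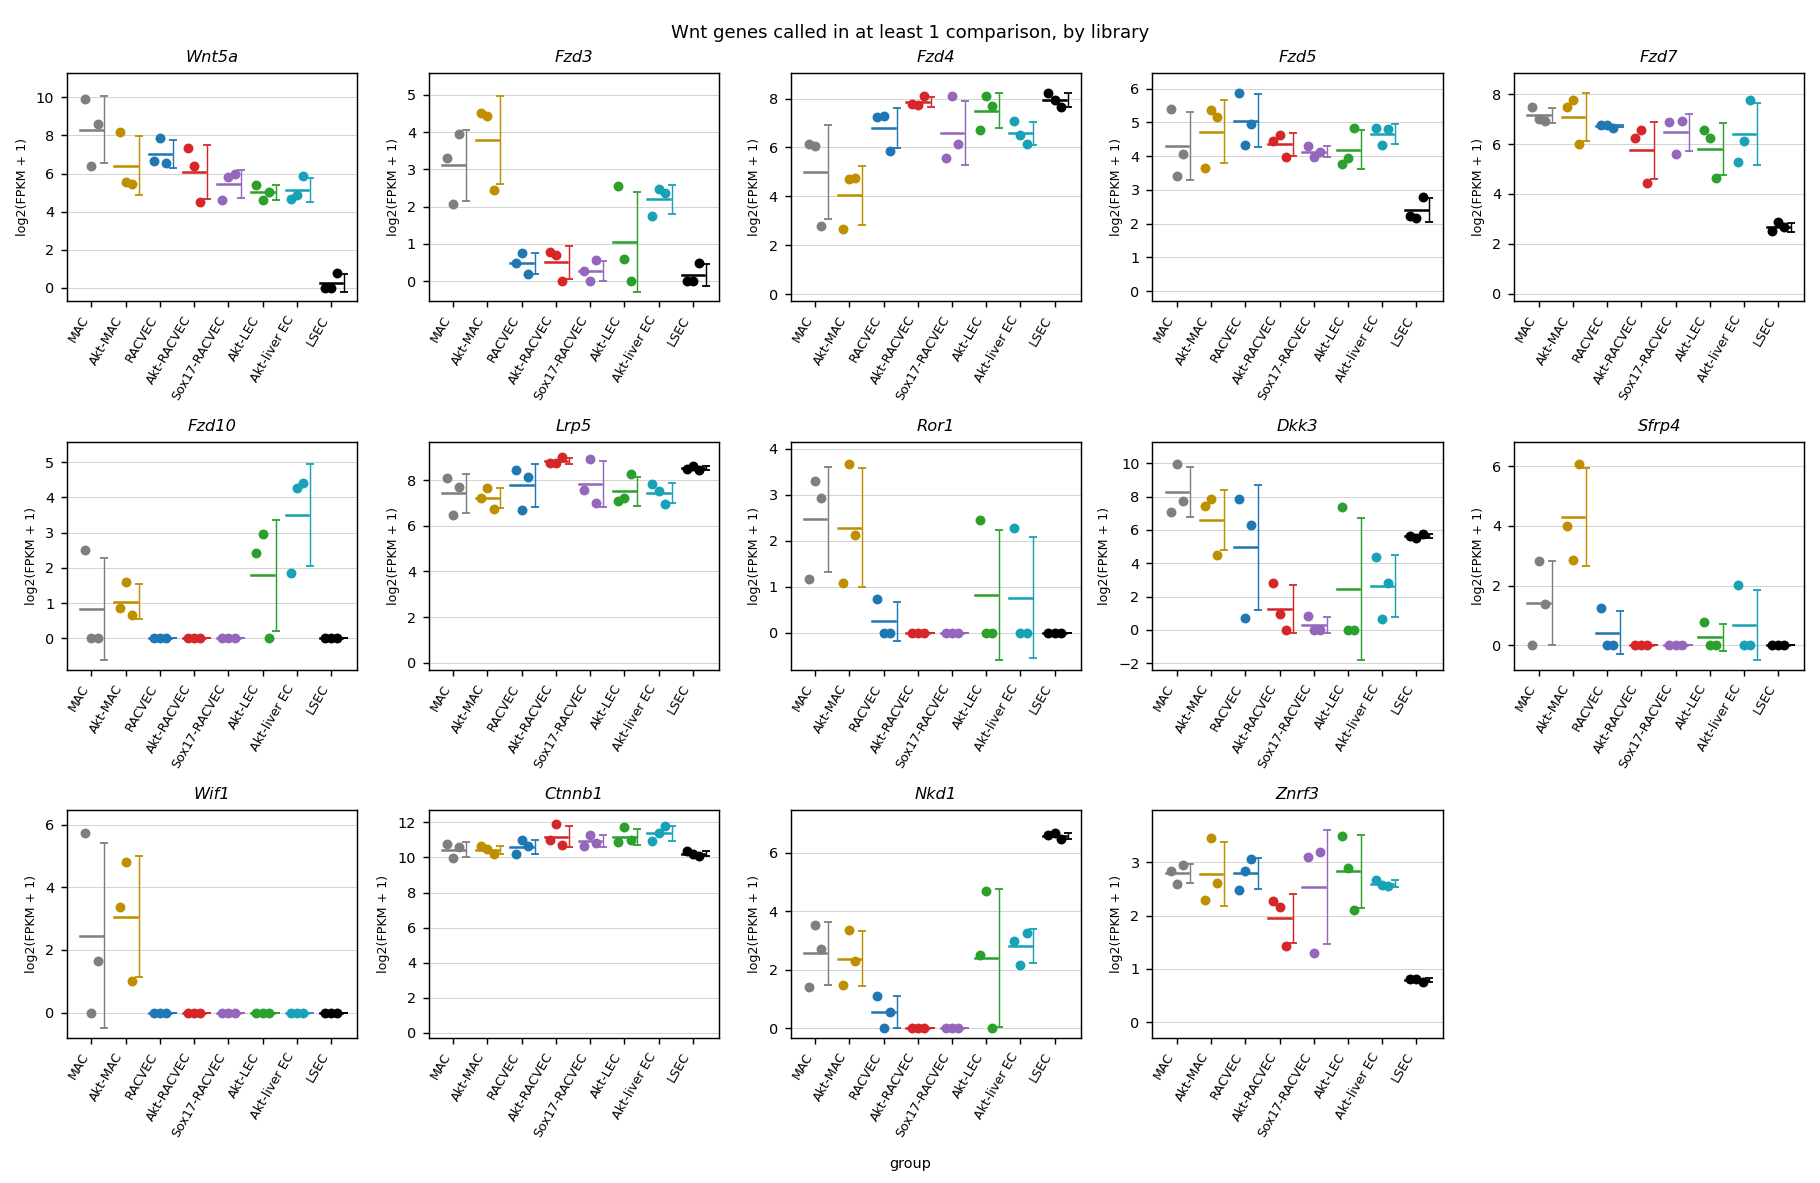
Level of the 14 genes called in at least 1 comparison, as log2(FPKM + 1), with a dot per library, a line at the mean of the 3 libraries of a group and a bar for their SD. Fzd10, Ror1, Sfrp4, Wif1 and Nkd1 lie at 0 in Akt-RACVECs, Fzd4 is high in Akt-RACVECs and LSECs, and Nkd1 peaks in LSECs at 87.5 to 101 FPKM.

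RACVECs against MACs asked what the Ets factors and the endothelial medium changed. Fzd3, a receptor of planar polarity signalling, was the 1 gene called, in 1 of 38 tested against 2.71% of all 14964 genes. It stood at 8.85, 3.18 and 14.6 FPKM in MACs and 0.41, 0.68 and 0.14 in RACVECs. All RACVEC libraries lay below all MAC libraries, with a log2 difference of -2.63 (SE 0.62, adjusted p = 0.026), limma with Benjamini-Hochberg adjustment. Fzd3 (mm9, chr14:65819863-65881300, minus strand) lost this call when MAC 1, MAC 3 or any RACVEC library was left out, with adjusted p from 0.0534 to 0.111. It was also lost with a pseudocount of 0.1 (-4.05, adjusted p = 0.083) or 10 (-0.81, adjusted p = 0.0838) in place of 1 and with only these groups in the fit (adjusted p = 0.152). The criterion of the study's methods, which takes an unadjusted p on FPKM and the ratio of averaged FPKM, called Wnt2b at -1.49 and Fzd6 at 1.35 in its place, and 3.07% of all genes. Next in order of unadjusted p came Ror1 at -2.22 with an adjusted p of 0.112 and Lef1 at -2.34 with an adjusted p of 0.149, neither of which passed. Without MAC 2, which held the highest Sfrp1 and Dkk3 of the series, 5 genes were called lower, namely Fzd3 (-3.15, adjusted p = 0.00924), Dkk1 (-4.29, adjusted p = 0.0243), Lef1 (-3.51, adjusted p = 0.0134), Tcf7 (-4.13, adjusted p = 0.0164) and Wif1 (-3.69, adjusted p = 0.0236), where 4.99% of all genes were called.

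Most of the other genes pointed the same way without passing the test. Of the 38 genes, 30 had a lower mean log2 level in RACVECs, with a median difference of -0.96, where 47.7% of all genes were lower and their median was 0.00. The filter took the mean over all 24 libraries, so that a gene could pass through the amniotic groups alone, as Wif1 did. Wnt4, Fzd10, Wif1, Lef1 and Axin2 were listed at 0 in all RACVEC libraries and could not have a positive difference. The counts of negative genes are therefore partly set by the filter and the zeros. The median of the 38 was -1.38 with a pseudocount of 0.1 and -0.43 with one of 10. At an unadjusted p below 0.05 stood 11 of 38, against 19.6% of all genes. The libraries of the groups did not overlap in 3 genes with higher and 7 with lower values, against 11.4% and 10.5% of all genes. By role, all 8 inhibitors, all 5 tested ligands and all 3 Ror and Ryk genes had negative differences, with medians of -2.31, -1.01 and -2.22. Among the 11 Frizzled and Lrp genes 6 were negative and 5 positive, with Fzd4 at 1.79 with an adjusted p of 0.212 and Fzd6 at 1.53 with an adjusted p of 0.523. Of the 5 tested target genes, Axin2, Lef1, Tcf7 and Nkd1 had differences from -2.74 to -2.01, and Znrf3 had 0.01. β-catenin had 0.18 with an adjusted p of 0.841. Without RACVEC 2, the library with few mesenchymal markers, 30 of 38 were negative with a median of -0.77.

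The conversion was sampled a second time under Akt, in Akt-RACVECs against Akt-MACs, which share no library with the first comparison. The medium of the Akt-MACs was not given in the sources used here. Here 8 of 38 genes were called, against 19.5% of all genes, with 2 higher and 6 lower against 6.15% and 13.4% of all. The libraries of the groups did not overlap in 4 genes with higher and 13 with lower values, against 15.3% and 22.0% of all genes. Fzd4, Lrp5 and Tspan12, components of the Norrin receptor, were higher in Akt-RACVECs than in Akt-MACs. Fzd4 (mm9, chr7:96552876-96558620, plus strand) rose from 5.29, 25.2 and 25.6 to 218, 209 and 275 FPKM, a log2 difference of 3.83 (SE 0.78, adjusted p = 0.00254) in limma with Benjamini-Hochberg adjustment. Lrp5 (mm9, chr19:3584825-3686564, minus strand) rose from 147, 198 and 107 to 427, 431 and 509.9, a difference of 1.63 (SE 0.51, adjusted p = 0.0264). The partner Tspan12, a tetraspanin outside the 40 genes, went from 32.2, 89.2 and 8.85 to 175, 139 and 175 with 2.40 and was called as well. In all 3 genes the libraries of the groups did not overlap. Between RACVECs and MACs those of Lrp5 did overlap, at 103 to 350 against 87.8 to 275 FPKM. Norrin itself, encoded by Ndp, was at 14.9, 17.2 and 0.85 in Akt-MACs and at most 0.69 in Akt-RACVECs.

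The 6 genes that fell were 3 secreted inhibitors, 2 receptors and 1 feedback regulator. The filter took the mean over all libraries, so that Sfrp4, Wif1 and Ror1 could pass through the amniotic groups, where their means were highest. The count of lower genes is therefore partly set by the filter. Dkk3 (mm9, chr7:119259533-119302571, minus strand), a Dkk family member whose part in Wnt signalling is less settled, went from 170.2, 228 and 21.6 to 6.14, 0.98 and 0, a difference of -5.31 (SE 1.78, adjusted p = 0.0372). Fzd3 went from 21.9, 20.5 and 4.4 to 0.73, 0.63 and 0, a difference of -3.29 (SE 0.62, adjusted p = 0.00156). The remaining 4 were listed at 0 in all Akt-RACVEC libraries, so that their differences on the log2(FPKM + 1) scale are set by the added 1 and are no folds. Sfrp4 (mm9, chr13:19714973-19724863, plus strand) stood at 14.9, 6.17 and 66.2 in Akt-MACs with a difference of -4.30 (SE 0.73, adjusted p = 0.000743). Wif1 (mm9, chr10:120471016-120537706, plus strand) stood at 9.4, 27.3 and 1 with -3.07 (SE 0.97, adjusted p = 0.0295). These inhibitors both bind Wnts directly. Ror1 (mm9, chr4:99768396-100117370, plus strand) stood at 1.1, 11.7 and 3.36 with -2.29 (SE 0.74, adjusted p = 0.032). Nkd1 (mm9, chr8:91045243-91118786, plus strand) stood at 1.76, 9.3 and 3.93 with -2.38 (SE 0.80, adjusted p = 0.038). Sfrp4, Fzd3 and Fzd4 kept their calls whenever a single library was left out, and each of the other 5 lost its call in 4 or 5 of the 6 such fits, with adjusted p from 0.0529 to 0.173. The count was 5 without Akt-MAC 1, 4 without Akt-MAC 2, 10 without Akt-MAC 3, 5 without Akt-RACVEC 1, 4 without Akt-RACVEC 2 and 4 without Akt-RACVEC 3, where 11% to 16.8% of all genes were called. The criterion of the study's methods called Wnt2b, Fzd4 and Lrp5, and 7.97% of all genes. Akt-MAC 1 had a lower macrophage marker sum, at 815, than Akt-MAC 2 and Akt-MAC 3. Without the latter, 1 Akt-MAC library was left. Of the 5 genes whose calls depended on single libraries, Lrp5 then had 1.62, Dkk3 -6.15, Nkd1 -1.46, Ror1 -1.07 and Wif1 -3.38. With a pseudocount of 10, Nkd1 (-0.55, adjusted p = 0.212), Ror1 (-0.56, adjusted p = 0.0679) and Wif1 (-1.0, adjusted p = 0.13) lost their calls, and with one of 0.1 Dkk3 did (-6.75, adjusted p = 0.0538). With only these groups in the fit, Dkk3, Nkd1, Ror1 and Wif1 lost theirs, with adjusted p from 0.0523 to 0.116.

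Over all 38 genes the median difference under Akt was -1.03, with 29 negative, against -0.09 and 54.4% negative over all genes. It was -1.94 with a pseudocount of 0.1 and -0.31 with one of 10. Scaling each library by its median ratio moved the median of all genes by 0.12, after which 28 of 38 were negative with a median of -0.91. Genes whose mean log2 level was lower in the converted cells both with and without Akt made up 26 of 38, or 68.4%, against 36.3% of all genes. Those higher in both made up 5, or 13.2%, against 31.7%. Fzd4 was among the latter, with 1.79 without Akt and 3.83 with it. Genes listed at 0 in all RACVEC or all Akt-RACVEC libraries could not be higher in both, among them Fzd10, Ror1, Wif1, Lef1 and Nkd1. The share lower in both is also partly set by the filter, which Wif1, Ror1 and Sfrp4 could pass through the amniotic groups. The genes were also chosen with earlier results of these data known. Fzd3 was the 1 gene called in both comparisons.

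**Figure D4:**
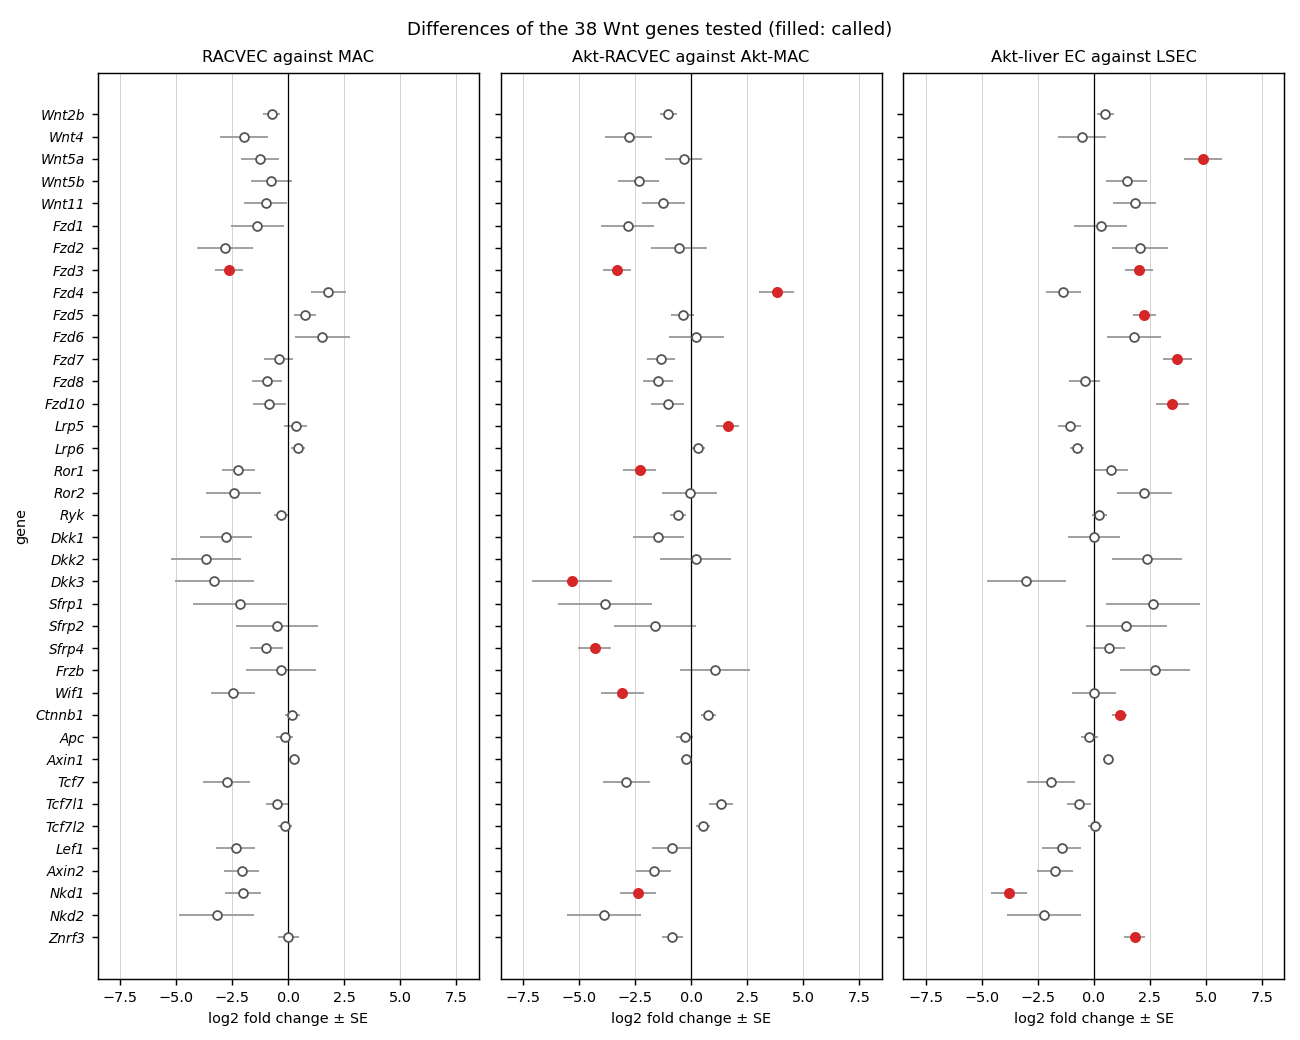
Log2 difference ± SE of the 38 tested Wnt genes on the log2(FPKM + 1) scale in RACVECs against MACs, Akt-RACVECs against Akt-MACs and Akt-liver ECs against LSECs, with called genes as filled red points. Negative values prevail in the first and second panels, with 30 and 29 of 38, and the called genes of the third panel are positive except Nkd1.

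Akt-RACVECs against RACVECs asked what constitutive Akt added to the converted cells. Limma called 0 of 38 Wnt genes, where 0.261% of all genes were called. At an unadjusted p below 0.05 stood 3 of 38, against 15.9% of all genes, and the criterion of the study's methods called 1, Znrf3 at -1.02, against 3.69%. The 3 genes below 0.05 were Ryk, Sfrp1 and Lrp5. Ryk was at 205, 194 and 264 FPKM in RACVECs and 169, 97.7 and 78.6 in Akt-RACVECs, a difference of -1.0 (SE 0.35, adjusted p = 0.171) in limma with Benjamini-Hochberg adjustment, and the libraries did not overlap. Sfrp1 had -4.76 with an adjusted p of 0.272 and its libraries overlapped through RACVEC 2, while Lrp5 had 1.06 with an adjusted p of 0.314 without overlap. The libraries of Znrf3, at 4.61, 6.18 and 7.38 FPKM in RACVECs and 3.84, 3.45 and 1.68 in Akt-RACVECs, did not overlap either, and its limma difference was -0.85 with an adjusted p of 0.381. The median of the 38 differences was -0.23, and ran from -0.36 without RACVEC 2 to -0.06 without RACVEC 1.

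Sox17-RACVECs against RACVECs asked what Sox17, a transcription factor of arterial endothelium, added. Limma called 0 of 38 genes with and without the library labelled Sox17-RACVEC 2, where 0.00668% of all genes were called with it. At an unadjusted p below 0.05 stood 4 of 38, against 6.62% of all genes, and the criterion of the study's methods called Wnt11 and Fzd1, and 1.13% of all genes. Fzd1 was at 99.9, 56.4 and 93.1 FPKM in RACVECs and 8.59, 13.2 and 12.2 in Sox17-RACVECs. All Sox17-RACVEC libraries lay below all RACVEC libraries, and the difference of -2.75 (SE 1.17, adjusted p = 0.692) in limma with Benjamini-Hochberg adjustment did not pass. Dkk3 had -4.68 with an adjusted p of 0.618 and Ror2 had -3.14 with an adjusted p of 0.633. Ror2 was listed at 0 in all Sox17-RACVEC libraries, so that its value is no fold. Without the library labelled Sox17-RACVEC 2 the values were -2.86 with an adjusted p of 0.863 for Fzd1, -4.54 with an adjusted p of 0.815 for Dkk3 and -3.14 with an adjusted p of 0.821 for Ror2. The sum of the 8 mesenchymal and amnion markers moved with these genes, at 7379.7, 1345 and 2956 in RACVECs and 752, 5.2 and 612 in Sox17-RACVECs, and its part in the values was not tested.

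Sox17-RACVECs and Akt-RACVECs were also set against each other. Limma called 0 of 38 genes, against 0.0% of all genes, with 0 of 38, against 7.68% of all genes, at an unadjusted p below 0.05. The criterion of the study's methods called 0 of 38 as well, and 0.715% of all genes. The smallest unadjusted p belonged to Lrp5 at -1.0 with an adjusted p of 0.671, Ror2 at -2.33 with an adjusted p of 0.697 and Wnt2b at 0.70 with an adjusted p of 0.711. The Lrp5 values were 186, 489 and 128 FPKM against 427, 431 and 509.9, and the library labelled Sox17-RACVEC 2 lay among the Akt-RACVEC libraries. Without it Lrp5 had -1.55 with an adjusted p of 0.109, and Fzd4 had -2.02 with an adjusted p of 0.196.

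Akt-MACs against MACs asked what Akt changed before conversion. Sfrp4, a secreted inhibitor, was the 1 gene called of 38, against 2.81% of all genes. It stood at 0, 6.06 and 1.6 FPKM in MACs and 14.9, 6.17 and 66.2 in Akt-MACs, with every Akt-MAC library above every MAC library. The difference was 2.90 (SE 0.73, adjusted p = 0.0379) in limma with Benjamini-Hochberg adjustment. Scaling the libraries moved the median of all genes by -0.14, and after it Sfrp4 had 2.76, adjusted p = 0.0565, which no longer passed. The call was also lost without MAC 1 (2.20, adjusted p = 0.166), MAC 3 (2.89, adjusted p = 0.0612) or Akt-MAC 3 (2.02, adjusted p = 0.204). It was lost as well with a pseudocount of 0.1 (4.18, adjusted p = 0.18), with only these groups in the fit (2.90, adjusted p = 0.528) and without both Akt-MAC 2 and Akt-MAC 3 (2.59, adjusted p = 0.455). Akt-MAC 3, which held the highest Sfrp4 of the series, also had the highest macrophage marker sum of the group, and the part of those cells was not tested. Ror2 followed at -3.17 with an adjusted p of 0.218 and Tcf7l2 at -0.77 with an adjusted p of 0.241, neither of which passed. The criterion of the study's methods called 0 of 38 and 1.12% of all genes. At an unadjusted p below 0.05 stood 5 of 38, against 14.0% of all genes. Over the 38 genes the median was -0.07, with 16 positive and 22 negative, and the median ran from -0.43 without Akt-MAC 2 to 0.08 without MAC 1.

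The difference between the effect of Akt in RACVECs and that in MACs was tested as an interaction. Limma called 0 of 38 genes, against 0.1% of all genes, with 2 of 38, against 12.1% of all genes, at an unadjusted p below 0.05. Sfrp4, which rose with Akt in MACs and was listed at 0 in all Akt-RACVEC libraries, had -3.32 with an adjusted p of 0.175. Tcf7l1 had 1.82 with an adjusted p of 0.322 and Fzd4 had 2.04 with an adjusted p of 0.483. Scaling moved the median of all genes in this contrast by 0.17, and 0 of the 38 genes were called after it or under any other alternative run.

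Akt-liver ECs against LSECs set cultured against freshly sorted liver endothelium, and 8 of 38 genes were called, a share not above the 27.0% of all genes. Of these, 7 were higher and 1 lower, against 14.1% and 12.9% of all genes. The libraries of the groups did not overlap in 15 genes with higher and 8 with lower values, against 27.7% and 24.9% of all genes. Wnt5a and a group of Frizzled receptors were higher in culture, and Nkd1 was lower. Wnt5a (mm9, chr14:29317936-29340633, plus strand) was at 0, 0 and 0.73 FPKM in LSECs and 24.3, 28.4 and 57.6 in Akt-liver ECs, a log2 difference of 4.87 (SE 0.83, adjusted p = 0.000207) in limma with Benjamini-Hochberg adjustment. Fzd7 (mm9, chr1:59538991-59543791, plus strand), a receptor active in stem and progenitor cells, was at 4.65, 6.27 and 5.35 in LSECs and 38.4, 69.6 and 217 in Akt-liver ECs, a difference of 3.73 (SE 0.64, adjusted p = 0.000219). Fzd10 (mm9, chr5:129106719-129109968, plus strand) was listed at 0 in all LSEC libraries and stood at 2.6, 18.2 and 20.2 in Akt-liver ECs. Its difference of 3.51 (SE 0.74, adjusted p = 0.00131) is therefore no fold. Fzd5 (mm9, chr1:64777134-64784324, minus strand) was at 3.71, 3.54 and 5.97 in LSECs and 27.7, 19 and 27 in Akt-liver ECs, a difference of 2.25 (SE 0.50, adjusted p = 0.00213). Fzd3 was at 0, 0 and 0.41 in LSECs and 2.37, 4.52 and 4.12 in Akt-liver ECs, a difference of 2.03 (SE 0.62, adjusted p = 0.0169), which lost its call without Akt-liver EC 2, Akt-liver EC 3, LSEC 1 or LSEC 2, with adjusted p from 0.0501 to 0.0539. In each of these genes the libraries of the groups did not overlap.

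Among the transducers and regulators, Ctnnb1, Znrf3 and Nkd1 were called. Ctnnb1 (mm9, chr9:120838334-120869625, plus strand) was at 1309.6, 1159.8 and 1095 FPKM in LSECs and 1967, 2689 and 3502 in Akt-liver ECs, a difference of 1.16 (SE 0.33, adjusted p = 0.011) in limma with Benjamini-Hochberg adjustment, and it lost the call without Akt-liver EC 3 (0.96, adjusted p = 0.0603). Znrf3 (mm9, chr11:5176327-5344850, minus strand) was at 0.75, 0.75 and 0.68 in LSECs and 5.37, 4.94 and 4.9 in Akt-liver ECs, a difference of 1.81 (SE 0.46, adjusted p = 0.00541). Nkd1 went the other way, from 96.1, 101 and 87.5 in LSECs to 6.98, 3.42 and 8.56, a difference of -3.78 (SE 0.80, adjusted p = 0.00135). The groups did not overlap in any of the 3. The remaining tested target genes had -1.74 with an adjusted p of 0.0965 for Axin2, -1.91 with an adjusted p of 0.171 for Tcf7 and -1.43 with an adjusted p of 0.217 for Lef1. Of the 5 tested target genes, 4 thus had lower and 1 had higher means in culture, and 1 was called in each direction. Among the 11 Frizzled and Lrp genes 4 were called higher and 0 lower. Fzd4 had -1.37 with an adjusted p of 0.189 and Lrp5 had -1.08 with an adjusted p of 0.108. Without Akt-liver EC 1 and Akt-LEC 1, 9 of 38 were called, against 26.1% of all genes. With a pseudocount of 10, Fzd3 (0.43, adjusted p = 0.193) and Znrf3 (0.49, adjusted p = 0.0412) were not called. The criterion of the study's methods called 3 higher and 5 lower, and 18.7% of all genes. Its lower genes were Fzd4, Lrp5, Dkk3, Axin2 and Nkd1.

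LSEC libraries carried RNA of other liver cells. The summed FPKM of 8 hepatocyte markers was 3812 to 17911 in LSECs and 97.2 to 587 in Akt-liver ECs. For 7 macrophage and Kupffer cell markers it was 11806 to 18992 against 0 to 978, and for 4 red cell markers 28699 to 32864 against 0.75 to 1.07. For 7 stellate cell markers it was 551 to 1149 against 235 to 535. Their part in the levels of Nkd1, Dkk3 and the other Wnt genes was not tested.

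The ligands of liver endothelium were set beside Wnt5a. Wnt2 was at 1261, 1096 and 1019.6 FPKM in LSECs and 14.3, 1.68 and 19.4 in Akt-liver ECs, a difference of -6.90 (SE 1.22, adjusted p = 0.000285) in limma with Benjamini-Hochberg adjustment. It was listed at 0 in all RACVEC and Sox17-RACVEC libraries. Wnt9b was at 36.8, 37.9 and 32.5 in LSECs and 0.87, 6.99 and 19.6 in Akt-liver ECs, at a difference of -2.44 with an adjusted p of 0.375. In Akt-RACVECs Wnt9b stood at 93.3, 2.11 and 384 and in RACVECs at 0, 0.28 and 0, a difference of 5.48 with an adjusted p of 0.19. Rspo3, which strengthens Wnt signalling by removing Znrf3 and Rnf43 from the membrane, was at 109.8, 89.6 and 79.1 in LSECs and 39.6, 16.2 and 24.5 in Akt-liver ECs, at a difference of -1.83 with an adjusted p of 0.366. LSECs thus held Wnt2, Wnt9b and Rspo3 with almost no Wnt5a, and the cultured liver libraries held Wnt5a in all 3 libraries with lower Wnt2.

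**Figure D5:**
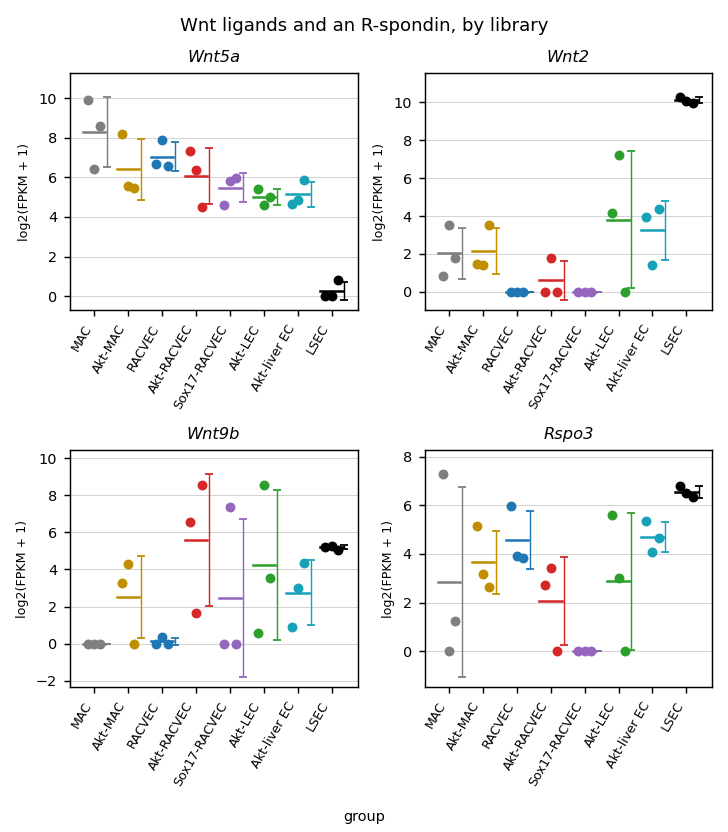
Level of Wnt5a, Wnt2, Wnt9b and Rspo3 in the 8 groups as log2(FPKM + 1), with a dot per library, a line at the mean and a bar for the SD of 3 libraries. LSEC libraries are lowest for Wnt5a and highest for Wnt2, at 1019.6 to 1261 FPKM.

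Akt-RACVECs were also set against cultured adult endothelium, taken as the average of Akt-LECs and Akt-liver ECs, which likewise carried Akt. Limma called 0 of 38 genes, against 0.448% of all genes, with 4 of 38, against 14.4% of all genes, at an unadjusted p below 0.05. Fzd10 had -2.65 with an adjusted p of 0.0654, with 0 in all Akt-RACVEC libraries, 4.36, 6.75 and 0 FPKM in Akt-LECs and 2.6, 18.2 and 20.2 in Akt-liver ECs. Nkd1 had -2.60 with an adjusted p of 0.081, with 0 in all Akt-RACVEC libraries, 4.71, 24.8 and 0 in Akt-LECs and 6.98, 3.42 and 8.56 in Akt-liver ECs. Neither value is a fold. Lrp5 had 1.36 with an adjusted p of 0.148, and its Akt-RACVEC libraries lay above all libraries of both cultured groups. Fzd10 was called without Akt-liver EC 1 (-3.06, adjusted p = 0.0206), without Akt-LEC 3 (-3.10, adjusted p = 0.00809) and without both Akt-LEC 1 and Akt-liver EC 1, and Nkd1 was called without Akt-LEC 3 (-3.20, adjusted p = 0.00411).

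Between the organs, Akt-LECs against Akt-liver ECs, limma called 0 of 38 genes, against 0.0134% of all genes. At an unadjusted p below 0.05 stood 1 of 38, against 4.22% of all genes, and the criterion of the study's methods called 0 of 38 and 0.682% of all genes. The smallest unadjusted p belonged to Fzd10 at -1.71 with an adjusted p of 1, Fzd3 at -1.14 with an adjusted p of 1 and Fzd1 at 1.70 with an adjusted p of 1. Without Akt-LEC 1 and Akt-liver EC 1, the libraries with markers of other cells, Fzd1 had 1.27 with an adjusted p of 0.88 and Fzd10 had -2.86 with an adjusted p of 0.241.

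The files listed 54 transcripts for the 40 genes, and 8 genes had more than 1. In Ctnnb1 the same transcript held 54% to 88.4% of the gene's FPKM in every library, in Fzd6 72.3% to 99.7%, in Ryk 69.9% to 93.4%, in Axin1 67% to 85.6% and in Nkd1 93.2% to 99.9%. In Fzd5, which had 2 transcripts of unequal level, the share of one ranged from 10.8% to 90.4%. Tcf7l2, with 8 listed transcripts, had no transcript that prevailed in every group. How fragments shared by transcripts were divided was set by the authors' software, so that these shares are less certain than the sums. With the highest transcript of each gene in place of the sum, the Ctnnb1 difference between Akt-liver ECs and LSECs was 0.94, adjusted p = 0.0234, which falls short of the log2 threshold, and the other called genes kept their calls.

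A further 83 genes of the pathway were followed by lists of other ligands, Norrin and R-spondin partners, secretion factors, transducers, planar polarity genes and reported targets. Of these, 67 passed the filter. In RACVECs against MACs 1 of the 67 was called, against 2.71% of all genes, namely the ligand Wnt16 at -3.11 with an adjusted p of 0.016 by limma with Benjamini-Hochberg adjustment, with 4.14 to 32.6 FPKM in MACs and 2.88, 0 and 0 in RACVECs. In Akt-MACs against MACs 1 was called, against 2.81% of all genes, namely Adgra2, an adhesion receptor that serves Wnt7 signalling in brain vessels, at -2.14 with an adjusted p of 0.0423, although its libraries overlapped. In Akt-RACVECs against Akt-MACs 2 were called higher and 13 lower, against 6.15% and 13.4% of all genes. Daam1, an effector of planar polarity, had 1.51 with an adjusted p of 0.0174, and Tspan12 is given above. The largest decreases belonged to Cthrc1, a secreted cofactor of non-canonical Wnts, at -5.60 with an adjusted p of 0.0117, to Gpc4, a heparan sulphate proteoglycan, at -5.18 with an adjusted p of 0.0351, and to the target gene Ccn4 at -3.98 with an adjusted p of 0.00879. In Akt-liver ECs against LSECs 17 were called higher and 5 lower, against 14.1% and 12.9% of all genes. The planar polarity cadherin Celsr1 had 5.06 with an adjusted p of 0.00059, the glucose transporter Slc2a1 4.75 with an adjusted p of 1.14e-06 and the co-receptor Ptk7 4.45 with an adjusted p of 8.18e-07. Beside Wnt2, Ccn4 had -3.68 with an adjusted p of 0.00801 and the polarity gene Prickle1 -3.39 with an adjusted p of 0.0227. In the other 6 comparisons limma called 0 of the 67, with 1 to 15 at an unadjusted p below 0.05.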

How the data were processed

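RNA-seq libraries (TruSeq, paired reads of 51 bp, HiSeq2000) were mapped by the authors with TopHat to mm9. The deposited values are FPKM per RefSeq transcript from Cufflinks with upper-quartile normalization and bias correction, rounded to 2 decimals, and software versions were not given in the sources used here. Read numbers are unknown, so precision was taken from the spread of libraries within groups, shared over all 8 groups in the main fit. An FPKM of 0 can be a failed estimate. Each of 24 libraries listed 27583 transcripts, of which 26934 had a symbol. Transcripts of a symbol were summed, giving 22282 genes. No pair of libraries held identical values.

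Groups and replicate numbers were taken from the labels of the sample to which each file belongs. The file headers name the libraries otherwise, many by a letter or code alone. They give MAC 1 as control 2 and MAC 2 as control 3, mark MAC 3 and RACVEC 2 as later, give RACVEC 1 the number 3, and name Flk1 and GFP+ for RACVEC 3. The main test used R 4.3.3 and limma 3.58.1 with log2(FPKM + 1) as input, fitted once to all 24 libraries and 8 groups with a variance trend, two-sided. Genes entered the test at a mean FPKM of 1 or more, which 14964 did, and p-values were adjusted over them by Benjamini-Hochberg. Calls required an adjusted p below 0.05 together with a log2 difference past 1 or -1. The procedure was tested on simulated data. An alternative took an unadjusted test on FPKM with unequal variances and a log2 ratio of averaged FPKM + 1 past 1 or -1. The criterion of the study's methods, which adds no value to the averages, was added after seeing the data, and a gene at 0 in one group passed its ratio. Limma was preferred because it adjusts for the number of genes. The other alternatives were pseudocounts of 0.1 and 10, no filter, a fit of only the groups compared, a replicate block, scaling of each library, the highest transcript in place of the sum, and leaving out each library. Leaving out pairs of libraries with markers of other cells was added after seeing the data. The Wnt genes, the other lists and the markers were chosen with earlier results of these data known. Named are all 40 genes, those called with full values, the 3 with the smallest p where fewer than 3 were called, and the 3 called genes of the other pathway lists that rose or fell most, provided that no library of one group lay within the range of the other. Adgra2, whose libraries overlapped, and Wnt9b, Rspo3 and Ndp were named after their values were seen. Positions are of mm9 (GENCODE annotation), and promoters of GRCm38.p6 from RefSeq. The markers Cd68 and Hbb-b1 were not analysed here. Levels and the criterion were computed in Python 3.11.15 (pandas 2.3.3, numpy 2.4.6, scipy 1.17.1), and figures were drawn with matplotlib 3.10.9.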

Additional observations from a re-analysis of the deposited data

How the results depend on the processing

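The number of Wnt genes called depended on the processing where calls lay near the threshold. In RACVECs against MACs it was 0 with a pseudocount of 0.1 or 10 or a fit of only the groups compared, 2 by the study's criterion and 0 to 5 with 1 library left out. In Akt-MACs against MACs it was 0 with a pseudocount of 0.1, the scaling, a fit of the 2 groups alone, either form of the study's criterion (with or without 1 added to the averages) or without Akt-MAC 2 and Akt-MAC 3, and 0 to 1 with 1 library left out. In Akt-liver ECs against LSECs it was 15 with a pseudocount of 0.1, 6 with one of 10 and 16 with a fit of only the groups compared. Of all genes, 27.6%, 20.4% and 28.0% were called there, so that 15 and 16 of 38 lay above that share and 6 below. With 1 library left out it was 6 to 9, against 22.7% to 25.8% of all genes. In Akt-RACVECs against Akt-MACs it was 8 and 7 with pseudocounts of 0.1 and 10, against 18.6% and 14.4% of all genes. A fit of only the groups compared gave 4, against 6.77%. Either form gave 3, against 7.97% by the form without 1 added. With 1 library left out it was 4 to 10, against 11% to 16.8%. Against the mean of cultured endothelium it was 1 without Akt-LEC 1 and Akt-liver EC 1 and 0 to 2 with 1 library left out. Of all genes, 0.408% and 0.134% to 1.97% were called there. In Sox17-RACVECs against RACVECs either form gave 2, and in Akt-RACVECs against RACVECs the study's criterion gave 1. In both, and in the comparisons not named here, limma called 0 under every alternative run. Of the values of single named genes under all alternatives, 509 kept direction and side of the threshold, 61 lost and 5 gained the call, and 0 changed direction. The causes were not tested. The criterion was not run for the interaction or the mean of 2 groups. Where a fit left a group with 1 library, that library was assumed to vary like the others.

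The replicate numbers were not taken to pair the libraries, since in no comparison did every same-numbered pair have a correlation of deviations over 0.1 (range -0.488 to 0.571). Single pairs were higher, with 0.571 and 0.366 between Akt-LECs and Akt-liver ECs for numbers 1 and 2. Whether some numbers shared a preparation was not tested. With the replicate block, limma called 0 genes in Akt-MACs against MACs, where Sfrp4 had 2.90, adjusted p = 0.0552. In Akt-RACVECs against Akt-MACs it called 9, against 19.5% of all genes. The other counts were the same as without the block. Read depth is unknown, so that no limit can be given for genes listed at 0.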
